A study of Mus musculus with 5 samples.

Results

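In mouse lung fibroblasts, 10 genes of the endothelin, angiotensin, lysophosphatidic acid (LPA), protease and bradykinin receptor systems were followed through a day of TGF-β1 treatment. They are Edn1, Ece1, Ednra and Ednrb of the endothelin system, Agtr1a of the angiotensin system, Enpp2 and Lpar1 of the LPA system, the protease-activated receptor genes F2r and F2rl1, and the bradykinin receptor gene Bdkrb2. The genes were taken by name from a count table of 55335 gene IDs, and all 10 were found in it. Of these, 8 passed the filter on low counts and were tested among 16380 genes, while Enpp2 and Ednrb did not pass it.

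The cells were primary fibroblasts grown out of mouse lung, and messenger RNA was sequenced in bulk. The 3 TGF-β1 libraries came from cells given the cytokine at 5 ng/mL for 24 h, and the 2 control libraries from cells given vehicle. Strain, age, sex, genotype and passage stay unstated, being not given in the sources used here. The series calls the samples independent biological replicates without naming the animals or dishes behind them, so each p-value reflects only how far these 5 libraries spread, which may be technical.

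The receptors encoded by these genes span the membrane and pass their signal to G proteins, many through the Gq family, which releases calcium, and some through the G12 family. Endothelin-1, angiotensin II and bradykinin are peptides cut from larger precursors, LPA is a lipid made by the secreted enzyme autotaxin, and protease-activated receptors are switched on when a protease trims their own outer end. In lung these systems are known for the control of vessel and airway tone and for the growth, migration and contraction of fibroblasts and myofibroblasts, the contractile, matrix-secreting cells into which TGF-β1 turns cultured fibroblasts.

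Libraries held 34283288 to 43163967 counts, and levels are given as CPM, counts scaled to library size, after TMM scaling, which evens out differences in library composition. The fibroblast label was checked against 8 markers, whose summed level was 33000.3 to 33276 CPM with TGF-β1 and 25936 to 26943 CPM in controls, mostly from collagen and vimentin genes, with Lum under 1 CPM in every library. Of the 8, 3 rose and 5 fell, where 21.3% of all genes tested rose and 23.2% fell. Pdgfra, a receptor gene that marks lung fibroblasts, averaged 43.6 ± 1.38 CPM with TGF-β1 and 177 ± 5.12 CPM in controls, a log2 fold change of -2.02 (SE 0.044, adjusted p = 1.69e-09, edgeR). Dcn, Thy1, Col3a1 and Lum also fell. Of 12 endothelial markers, 7 were under 1 CPM in every library, Pecam1 and Cdh5 among them, and the sum of the 12 was 39.6 to 42.1 CPM with TGF-β1 and 30.6 to 36.4 CPM in controls, most of it from Esam, the only 1 of 9 tested that passed (higher). Of 8 epithelial markers, 4 had 0 counts in every library. The sum of the 8 was 80.7 to 84.7 CPM with TGF-β1 and 85.4 to 90.7 CPM in controls, most of it from Krt8 and Krt18. Of 3 tested, Cdh1 rose and Krt18 fell. Marker lists of other cell types moved with treatment too. The 10 mesothelial markers summed to 206 to 234 CPM with TGF-β1 and 1537 to 1628 CPM in controls, and all 10 fell. The 8 macrophage and leukocyte markers summed to 1447 to 1482 CPM with TGF-β1 and 2377 to 2452 CPM in controls, and 7 fell and 1 rose. Most of this sum was Lyz2, which averaged 1137 CPM with TGF-β1 and 1994 CPM in controls. The gene that rose was Ptprc (log2 fold change 0.29, adjusted p = 0.00398, edgeR). In bulk RNA, fewer cells of a type and less RNA per cell cannot be told apart, and the part of these cell types in the results on the receptor genes was not tested.

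Among the 8 members tested, 3 fell and 2 rose at an adjusted p under 0.05 (edgeR's quasi-likelihood test, Benjamini-Hochberg adjustment over all genes). Agtr1a, Lpar1 and F2r fell, F2rl1 and Bdkrb2 rose, and Edn1, Ece1 and Ednra did not pass. Over all genes tested, 44.5% passed, 23.2% lower and 21.3% higher, so calls were common across the whole table. The median log2 fold change of the members tested was -0.01, against 1.06e-05 over all genes. All 3 TGF-β1 libraries lay on 1 side of both controls for 5 of the 8, against 64.6% of all genes. The members differed mainly in size of change, with log2 fold changes from -5.54 for Agtr1a to 1.15 for F2rl1. Both increases depended on the settings of the test, as given with those genes.

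**Figure D1:**
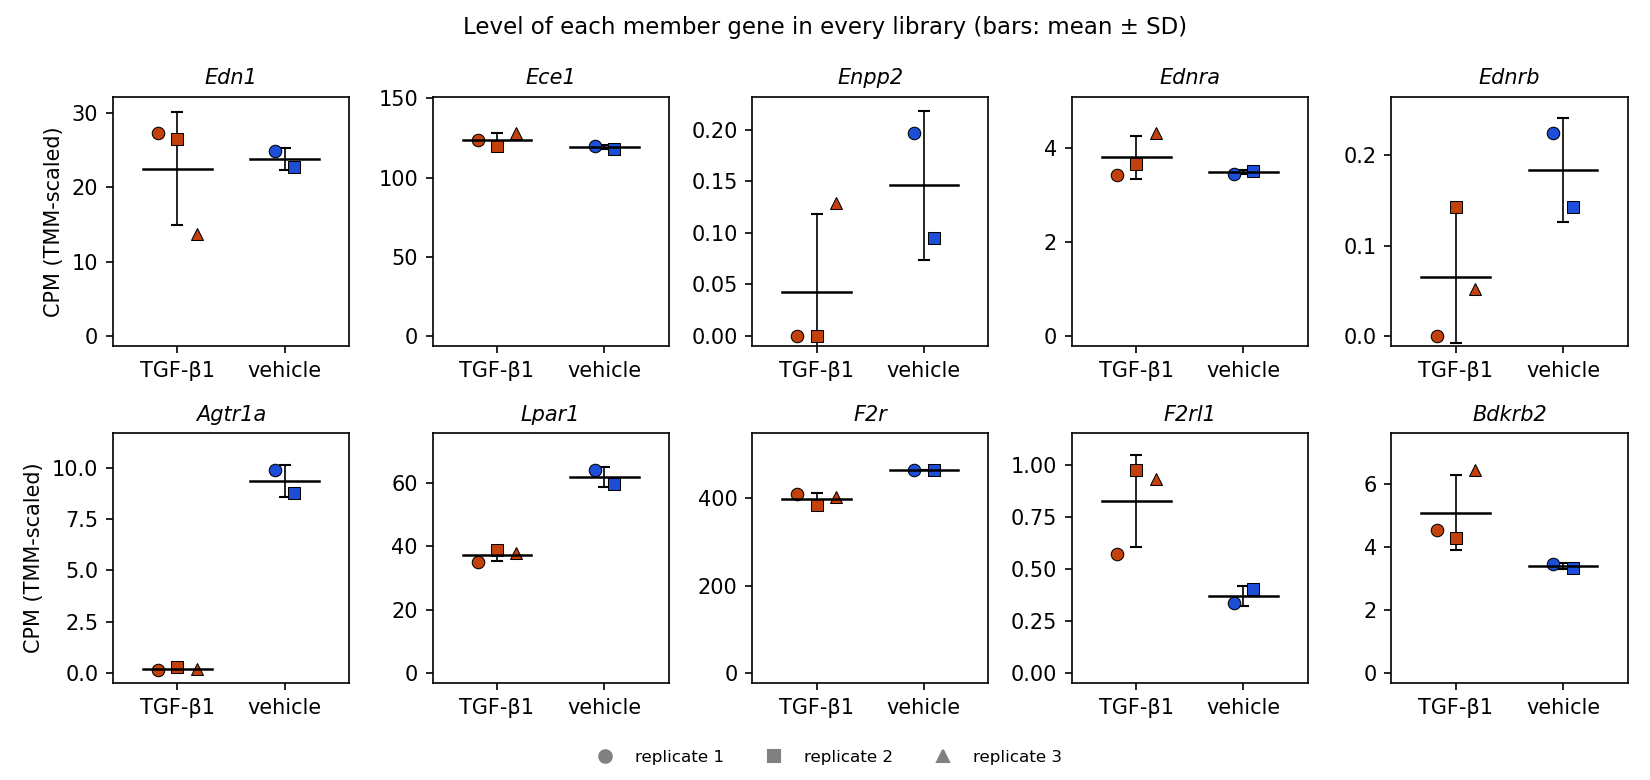
CPM of each member in every library on a linear axis from 0, 1 panel per gene, with the 3 TGF-β1 libraries left of the 2 vehicle controls, lines at the mean and bars of 1 SD. Agtr1a is the member whose groups lie farthest apart, and TGF-β1 replicate 3 stands apart for Edn1.

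**Figure D2:**
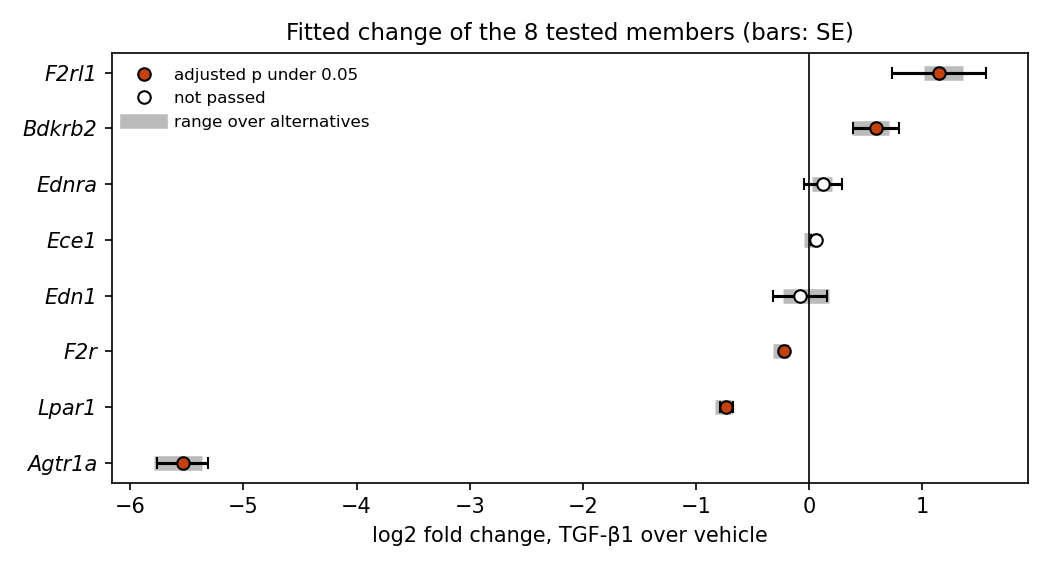
Log2 fold change of the 8 tested members, TGF-β1 over control, with the standard error as thin bars, the range over alternative settings as grey bars and filled points for an adjusted p under 0.05. Values run from -5.54 for Agtr1a to 1.15 for F2rl1.

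The promoters of 7 members were matched in RefSeq's table (GRCm38.p6), and 3 are shown, because Edn1 is the ligand gene, F2r the most highly expressed member per length and Bdkrb2 a gene that rose. Each is the 250 bases before the annotated start, written 5′ to 3′ on the gene's strand. Capitals mark CAGAC or its reverse complement GTCTG, the core bound by SMAD proteins, and TGANTCA, the site of AP-1 factors, searched on both strands.
Edn1 (chr13:42301226-42301475, plus strand): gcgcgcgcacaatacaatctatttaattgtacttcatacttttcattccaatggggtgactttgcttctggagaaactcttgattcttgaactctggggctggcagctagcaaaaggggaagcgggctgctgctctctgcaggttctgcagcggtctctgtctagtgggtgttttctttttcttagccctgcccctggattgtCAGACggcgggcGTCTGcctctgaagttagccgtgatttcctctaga
F2r (chr13:95618467-95618716, minus strand): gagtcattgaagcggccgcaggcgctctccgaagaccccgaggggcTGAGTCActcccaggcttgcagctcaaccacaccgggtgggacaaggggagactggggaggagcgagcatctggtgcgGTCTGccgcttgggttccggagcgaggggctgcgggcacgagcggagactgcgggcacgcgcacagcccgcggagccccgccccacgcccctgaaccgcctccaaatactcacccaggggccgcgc
Bdkrb2 (chr12:105562922-105563171, plus strand): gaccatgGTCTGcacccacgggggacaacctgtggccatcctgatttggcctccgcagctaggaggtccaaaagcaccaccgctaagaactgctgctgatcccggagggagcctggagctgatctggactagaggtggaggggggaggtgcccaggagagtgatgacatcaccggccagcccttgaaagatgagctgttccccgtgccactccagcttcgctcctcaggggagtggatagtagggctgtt
The Edn1 window held 2 CAGAC matches on opposite strands near its end and no AP-1 match. The F2r window held 1 CAGAC match and 1 AP-1 match, and the Bdkrb2 window 1 CAGAC match. Of 32841 annotated starts, 42.2% held at least 1 CAGAC match and 6.75% an AP-1 match in a window of this length. A match is a description of the letters and not a bound site. Of the other 4 matched members, Ednra had 2 CAGAC matches, Ece1 and Ednrb had 1 each and Lpar1 had none. Agtr1a was not among the 7 matched members. Any link between these matches and the changes in level was not tested.

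The angiotensin receptor gene showed the largest change of the members. Agtr1a (ENSMUSG00000049115, chr13:30336441-30382867, plus strand, GRCm38) encodes the type 1a receptor, which carries most actions of angiotensin II in rodents. It had 6, 11 and 7 counts in the TGF-β1 libraries, against 353 and 370 counts in the controls. These are 0.149, 0.262 and 0.181 CPM with TGF-β1 and 9.92 and 8.80 CPM with vehicle. Every TGF-β1 library was a few counts above the 3-count floor of 0.0714 to 0.0775 CPM, while both controls were far above. Means were 0.197 ± 0.0581 CPM with TGF-β1 (SD, n = 3) and 9.36 ± 0.790 CPM in controls (SD, n = 2). Agtr1a fell by 5.54 on the log2 scale (SE 0.226, adjusted p = 9.05e-08, edgeR's quasi-likelihood test), which is 46.4-fold lower. Of all genes tested, 10.9% both passed and changed at least 2-fold, and 7.74% both passed and fell that far. The log2 fold change was -5.79 to -5.37 over 14 other settings, libraries left out included. The sister gene Agtr1b, which encodes the other rodent type 1 receptor, had 0 counts in every library, and 33 of 2922 stretches of 50 exon bases in Agtr1a also occur in it.

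Of 12 other angiotensin genes, 6 were tested, 3 fell and 0 rose in edgeR, where 23.2% of all genes fell and 21.3% rose. In the upward direction 0 had an unadjusted p under 0.05 in edgeR, 0 passed in DESeq2 and 1 in limma-voom. Agt, the precursor, Ren1, renin, the type 2 receptor gene Agtr2 and the angiotensin-(1-7) receptor gene Mas1 had 0 counts in every library, where 3 counts would be 0.0713 to 0.0842 CPM. Enpep encodes aminopeptidase A, which trims angiotensin II to angiotensin III. It had 2.98, 3.05 and 3.08 CPM with TGF-β1, against 11.1 and 7.63 CPM in controls, and fell by 1.62 on the log2 scale (SE 0.173, adjusted p = 5.94e-05, edgeR). Anpep, aminopeptidase N, which acts on angiotensin III, had 4.65, 4.64 and 4.65 CPM with TGF-β1, against 11.04 and 13.4 CPM in controls. It fell by 1.40 (SE 0.124, adjusted p = 1.74e-05, edgeR). Agtrap encodes a protein that binds the type 1 receptor and draws it into the cell. It fell by 0.38 (SE 0.069, adjusted p = 0.00152, edgeR), with 29.1 ± 2.05 CPM in TGF-β1 libraries and 37.9 ± 0.525 CPM in controls. For these 3 genes the groups did not overlap. Ace, the converting enzyme, stayed under 1 CPM in every library, with 22, 17 and 30 counts with TGF-β1 and 0 and 13 counts in controls. Its log2 fold change of 1.80 did not pass (SE 0.832, adjusted p = 0.111, edgeR).

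In the LPA system the receptor gene fell, while the gene of the enzyme that makes the lipid was barely detected in any library. Lpar1 (ENSMUSG00000038668, chr4:58435255-58553898, minus strand) encodes the LPA receptor through which LPA draws fibroblasts into injured mouse lung. It had 35.2, 38.9 and 37.8 CPM in the TGF-β1 libraries, against 64.2 and 59.8 CPM in the controls. All TGF-β1 libraries were below both controls by a wide gap. Means were 37.3 ± 1.95 CPM with TGF-β1 (SD, n = 3) and 62.0 ± 3.15 CPM in controls (SD, n = 2). Lpar1 fell by 0.73 on the log2 scale (SE 0.060, adjusted p = 1.02e-05, edgeR's quasi-likelihood test), 1.66-fold lower. It passed under all 14 other settings, the test against a 1.5-fold change included (adjusted p = 0.044, edgeR). Enpp2 (ENSMUSG00000022425, chr15:54838901-54952892, minus strand) encodes autotaxin. It had 0, 0 and 5 counts with TGF-β1, against 7 and 4 counts with vehicle. The counts overlapped between the groups and were too low for the test. Fitted without the low-count filter, its log2 fold change was -1.71 (SE 1.43, adjusted p = 0.46, edgeR).

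Of 10 other LPA genes, 9 were tested, 3 fell and 1 rose, where 23.2% of all genes fell and 21.3% rose. Lpar2, another LPA receptor, had 5.92, 6.09 and 5.97 CPM with TGF-β1, against 15.8 and 15.9 CPM in controls. It fell by 1.40 on the log2 scale (SE 0.096, adjusted p = 2.97e-06, edgeR). Plpp1 and Plpp3 encode membrane phosphatases that take the phosphate off LPA outside the cell. Plpp3 had 20.8, 23.3 and 24.8 CPM with TGF-β1, against 58.3 and 58.9 CPM in controls, and fell by 1.35 (SE 0.072, adjusted p = 5.33e-07, edgeR). Plpp1 averaged 62.1 ± 4.79 CPM with TGF-β1 and 133 ± 2.55 CPM in controls, a log2 fold change of -1.10 (SE 0.061, adjusted p = 6.81e-07, edgeR). Its value is uncertain, because 452 exon bases overlap Mtrex on the opposite strand, counted at 64.3% of its level, and the strand setting of the counting is not given. The gene that rose, Pla1a, encodes a phospholipase known for cutting phosphatidylserine, and so makes another lysolipid. It averaged 3.70 ± 0.138 CPM with TGF-β1 and 0.948 ± 0.130 CPM in controls, a log2 fold change of 1.97 (SE 0.206, adjusted p = 5.24e-05, edgeR), and was named after its values were seen.

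The protease-activated receptor genes moved in opposite directions. F2r (ENSMUSG00000048376, chr13:95601803-95618487, minus strand) encodes PAR1, the main thrombin receptor of fibroblasts. It had 410.4, 385 and 403 CPM in the TGF-β1 libraries, against 465 and 466 CPM in the controls. The 3 TGF-β1 libraries were below both controls, by a small margin. Means were 399.5 ± 13.2 CPM with TGF-β1 (SD, n = 3) and 465 ± 0.604 CPM in controls (SD, n = 2). F2r fell by 0.22 on the log2 scale (SE 0.032, adjusted p = 0.000428, edgeR's quasi-likelihood test), 1.16-fold lower. The call held under each other setting except the test against a 1.5-fold change (adjusted p = 1).

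F2rl1 (ENSMUSG00000021678, chr13:95511732-95525227, minus strand) encodes PAR2, which is opened by trypsin-like proteases and not by thrombin. It had 23, 41 and 36 counts with TGF-β1, against 12 and 17 counts in controls, or 0.572, 0.976 and 0.931 CPM with TGF-β1 and 0.337 and 0.404 CPM in controls. Levels were low in all libraries, and the lowest TGF-β1 library was above the higher control. Means were 0.826 ± 0.221 CPM with TGF-β1 (SD, n = 3) and 0.371 ± 0.0475 CPM in controls (SD, n = 2). F2rl1 rose by 1.15 on the log2 scale (SE 0.416, edgeR's quasi-likelihood test), 2.21-fold higher. Its adjusted p of 0.049995 lies just inside the threshold. Of all genes tested, 3.19% both passed and rose at least 2-fold. F2rl1 did not pass under 11 of 13 other settings. Leaving out either control, or TGF-β1 replicate 2 or 3, ended the call, with log2 fold changes of 1.01 to 1.36 over the 5 omissions.

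F2r, F2rl1 and F2rl2, which encodes PAR3, lie within 191 kb of each other on chromosome 13. F2rl2 (chr13:95696853-95702739, plus strand) was named after its values were seen. In mouse platelets PAR3 helps thrombin open another receptor. F2rl2 had 1.44, 1.90 and 1.76 CPM with TGF-β1, against 0.730 and 0.285 CPM in controls, and rose by 1.76 on the log2 scale (SE 0.396, adjusted p = 0.00551, edgeR). All TGF-β1 libraries were above both controls, and the call held under each of the other settings run. The size of the change rested on the controls, with 2.56 on the log2 scale without control replicate 1 and 1.22 without control replicate 2. F2r thus fell while the related genes to either side were higher from low levels, F2rl1 only just past the threshold. The stretch holds 1 other protein-coding gene. Per base of exon, F2r was 590, 324 and 356 times F2rl1 in the TGF-β1 libraries, and 1133 and 947 times F2rl1 in the controls. The ratio from summed counts was 397 with TGF-β1 (95% exact binomial interval 326 to 488) and 1024 in controls (713 to 1529), where intervals cover counting error only. The groups' ratios did not overlap, and F2r remained the more abundant gene in every library.

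Of 10 other genes around thrombin, 9 were tested, 4 rose and 2 fell, where 21.3% of all genes rose and 23.2% fell. Tfpi2, an inhibitor of plasmin and other trypsin-like proteases, had 20.8, 22.9 and 21.7 CPM in the TGF-β1 libraries, against 1.71 and 2.04 CPM in the controls. It rose by 3.53 on the log2 scale (SE 0.122, adjusted p = 2.83e-08, edgeR), 11.5-fold higher. Thbd encodes thrombomodulin, which binds thrombin and turns it from clotting to the activation of protein C. Thbd had 30.3, 32.8 and 36.3 CPM with TGF-β1, against 129.8 and 119 CPM in controls, and fell by 1.91 (SE 0.073, adjusted p = 5.57e-08, edgeR). Groups did not overlap for either gene. Procr, the protein C receptor that works beside thrombomodulin, rose by 0.37 (SE 0.071, adjusted p = 0.00224, edgeR). It averaged 26.6 ± 0.527 CPM with TGF-β1 and 20.6 ± 1.40 CPM in controls. Tfpi, the inhibitor of tissue factor, averaged 181 ± 2.38 CPM with TGF-β1 and 158 ± 5.11 CPM in controls, a log2 fold change of 0.19 (SE 0.036, adjusted p = 0.00189, edgeR). With libraries scaled by their totals alone, Tfpi did not pass (adjusted p = 0.0638). F3, tissue factor itself, averaged 253 ± 8.35 CPM with TGF-β1 and 245 ± 11.2 CPM in controls and did not pass (adjusted p = 0.415, edgeR). The remaining call was Serpind1, a thrombin inhibitor, which fell and was under 2 CPM in every library.

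None of the 3 endothelin genes tested passed in edgeR, 0 had an unadjusted p under 0.05, and 0 passed in DESeq2 or limma-voom. In edgeR 44.5% of all genes tested passed, so 3 genes are too few to set this system apart. Edn1 (ENSMUSG00000021367, chr13:42301476-42307990, plus strand) encodes preproendothelin-1, the precursor of the peptide. It had 27.2, 26.5 and 13.7 CPM in the TGF-β1 libraries, against 24.9 and 22.7 CPM in the controls. TGF-β1 replicates 1 and 2 were just above both controls and replicate 3 was well below, so the groups overlapped. Means were 22.5 ± 7.61 CPM with TGF-β1 (SD, n = 3) and 23.8 ± 1.503 CPM in controls (SD, n = 2). The log2 fold change was -0.08 (SE 0.237, adjusted p = 0.818, edgeR's quasi-likelihood test). Without TGF-β1 replicate 3 it was 0.18 and still did not pass (adjusted p = 0.0764). Endothelial cells are the best known source of endothelin-1. The endothelial marker sum was 39.6, 42.1 and 40.9 CPM in TGF-β1 replicates 1, 2 and 3, most of it from Esam. Single markers of the list did not share an order over these libraries. Cdh5 had 0.895, 0.714 and 0.440 CPM and Vwf 1.14, 0.976 and 0.543 CPM, both lowest in replicate 3, as Edn1 was. Egfl7 had 1.99, 1.95 and 2.66 CPM, highest in replicate 3. Its value is uncertain, because 64 exon bases overlap Agpat2 on the opposite strand, counted at 619% of its level. Erg had 18, 12 and 18 counts, lowest in replicate 2. The part of endothelial cells in the Edn1 value was not tested. The antisense gene Gm47118, which overlaps an Edn1 exon by 35 bases, had 0 counts.

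Ece1 (ENSMUSG00000057530, chr4:137862237-137965229, plus strand) encodes the converting enzyme that releases endothelin-1 from its precursor. It had 124, 119.7 and 128 CPM with TGF-β1, against 120.0 and 118 CPM in controls. The groups overlapped, and the log2 fold change of 0.06 did not pass (SE 0.041, adjusted p = 0.308, edgeR). It was -0.043 with scaling by library totals. Ednra (ENSMUSG00000031616, chr8:77663031-77724464, minus strand) encodes the endothelin A receptor, which mediates contraction of smooth muscle. It had 3.43, 3.67 and 4.32 CPM with TGF-β1, against 3.45 and 3.52 CPM in controls, with overlapping groups. Its log2 fold change was 0.12 (SE 0.168, adjusted p = 0.588, edgeR). Ednrb (ENSMUSG00000022122, chr14:103814625-103844402, minus strand) encodes the endothelin B receptor, best known from endothelial cells, where it clears the peptide. It had 0, 6 and 2 counts with TGF-β1, against 8 and 6 counts in controls, and was not tested. Without the low-count filter its log2 fold change was -1.44 (SE 1.12, adjusted p = 0.428, edgeR). Summed over libraries, Ednra per base of exon was 44.7 times Ednrb with TGF-β1 (95% exact binomial interval 22.5 to 104) and 15.1 times Ednrb in controls (8.83 to 28.0), so these intervals overlap. Of 4 other endothelin genes, 2 were tested and 0 passed in edgeR, where 44.5% of all genes passed. In DESeq2 or limma-voom 0 passed, and 0 had an unadjusted p under 0.05 in edgeR. Edn3 had 0 counts in every library. Ece2, another converting enzyme, had 0.423, 0 and 1.06 CPM with TGF-β1, against 0.983 and 1.07 CPM in controls (adjusted p = 0.362, edgeR). Its log2 fold change was -1.07, and without TGF-β1 replicate 3 it was -2.28 and passed (adjusted p = 0.0366, edgeR). With limma-voom it was -2.62 and did not pass. Its counts are uncertain because 2937 exon bases are shared with Gm49333, counted at 75.8% of its level.

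Bdkrb2 (ENSMUSG00000021070, chr12:105563226-105595237, plus strand) encodes the bradykinin B2 receptor, the form that cells carry without prior injury. It had 4.55, 4.28 and 6.46 CPM in the TGF-β1 libraries, against 3.45 and 3.33 CPM in the controls. All TGF-β1 libraries were above both controls, and replicate 3 was the highest. Means were 5.10 ± 1.19 CPM with TGF-β1 (SD, n = 3) and 3.39 ± 0.0890 CPM in controls (SD, n = 2). Bdkrb2 rose by 0.59 on the log2 scale (SE 0.203, adjusted p = 0.0417, edgeR's quasi-likelihood test), 1.502-fold higher. The call was lost under 9 of 14 other settings. Without TGF-β1 replicate 3 the log2 fold change was 0.38 (adjusted p = 0.101, edgeR), and without control replicate 1 or 2 the adjusted p was 0.140 or 0.169.

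Of 7 other kinin genes, 3 were tested and 1 passed, where 44.5% of all genes passed. Prcp, a carboxypeptidase that cuts angiotensin II and activates prekallikrein, rose by 0.26 on the log2 scale (SE 0.055, adjusted p = 0.00402, edgeR). It averaged 46.4 ± 1.82 CPM with TGF-β1 and 38.7 ± 0.983 CPM in controls. Bdkrb1 encodes the B1 receptor, which is known to appear with injury. It had 2.26, 1.83 and 2.87 CPM with TGF-β1, against 3.12 and 3.47 CPM in controls. The groups did not overlap, yet the log2 fold change of -0.51 did not pass (SE 0.220, adjusted p = 0.092, edgeR), although it did without TGF-β1 replicate 3 (-0.69, adjusted p = 0.025) and with library totals (adjusted p = 0.0497). The precursor gene Kng1 and the kallikrein gene Klkb1 had 0 counts in every library.

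Set side by side per kb of exon, the members spanned a wide range of levels. With TGF-β1 the mean level was 119.8 CPM per kb for F2r, 23.4 for Ece1, 10.5 for Edn1, 8.70 for Lpar1, 1.34 for Bdkrb2, 0.695 for Ednra, 0.301 for F2rl1, 0.0708 for Agtr1a, 0.0152 for Ednrb and 0.00746 for Enpp2. With vehicle it was 139 CPM per kb for F2r, 22.5 for Ece1, 14.5 for Lpar1, 11.1 for Edn1, 3.36 for Agtr1a, 0.895 for Bdkrb2, 0.637 for Ednra, 0.135 for F2rl1, 0.0431 for Ednrb and 0.0252 for Enpp2. Agtr1a thus took place 8 of 10 with TGF-β1 and place 5 with vehicle, and the thrombin receptor gene F2r came first in both groups. Libraries of Edn1 and Lpar1 overlapped with TGF-β1, and those of Ednrb and Enpp2 overlapped in both groups, so these neighbours are not ordered beyond their spread. With the longest transcript as length, Edn1 and Lpar1 changed places with TGF-β1, as did Bdkrb2 and Ednra, and Ednrb and Enpp2, with vehicle.

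**Figure D3:**
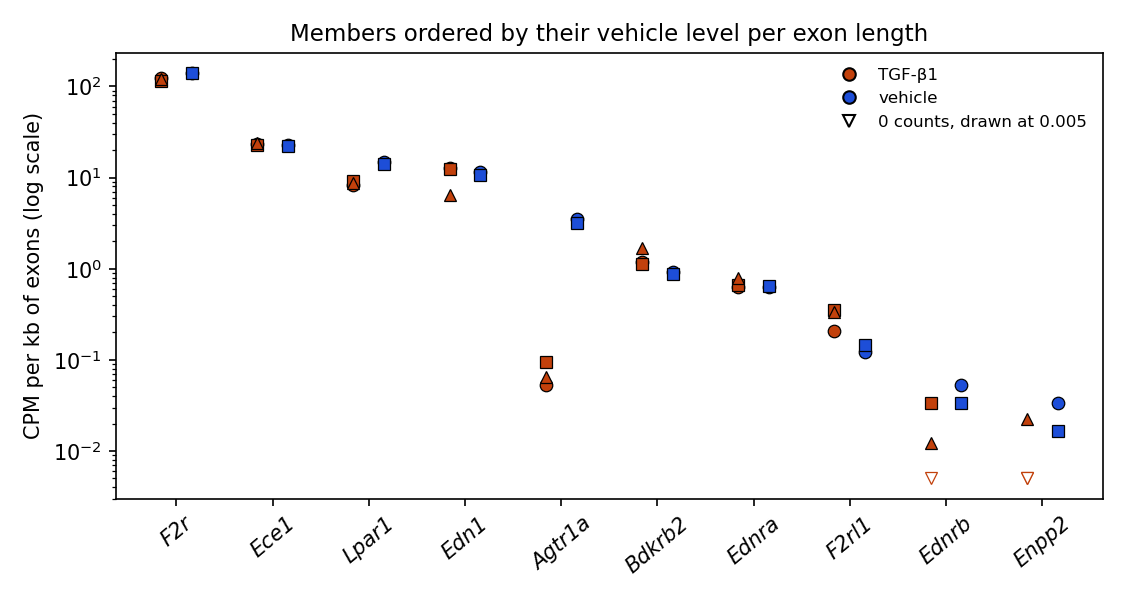
Level of each member in every library in CPM per kb of exon on a log axis, TGF-β1 left of vehicle, with genes in the order of their vehicle level and libraries with 0 counts as open triangles at the bottom. F2r is first in both groups, and Agtr1a is at place 8 with TGF-β1 and place 5 in controls.

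Genes that carry the receptors' signal inside the cell were looked at as a list of 41, all tested, of which 15 rose and 14 fell, where 21.3% of all genes tested rose and 23.2% fell. The median log2 fold change of the list was -0.01. With scaling by library totals 10 rose and 17 fell, so small changes in this list depend on the scaling. The 4 alpha subunits of the Gq and G12 families, Gnaq, Gna11, Gna12 and Gna13, were named after their values were seen. Gna11 averaged 146 ± 3.61 CPM with TGF-β1 and 119 ± 1.82 CPM in controls, a log2 fold change of 0.29 (SE 0.038, adjusted p = 0.000222, edgeR). Gna12 averaged 139 ± 2.94 CPM with TGF-β1 and 119 ± 1.68 CPM in controls and rose by 0.22 (SE 0.038, adjusted p = 0.00124, edgeR). Gna13 rose by 0.18 (adjusted p = 0.00991, edgeR; 68.2 ± 1.67 CPM with TGF-β1 and 60.1 ± 0.459 CPM in controls) and Gnaq by 0.12 (adjusted p = 0.0395, edgeR; 88.5 ± 1.56 CPM with TGF-β1 and 81.2 ± 1.70 CPM in controls). Gna13 did not pass with library totals (adjusted p = 0.177, edgeR) or without control replicate 1 (0.0664) or 2 (0.0515). Gnaq lost its call under 9 of 14 other settings, among them library totals (adjusted p = 0.679, edgeR), upper-quartile scaling (0.0592), and leaving out control replicate 1 (0.20) or 2 (0.0875) or TGF-β1 replicate 1 (0.101). Gnai1, an inhibitory subunit, had 14.5, 15.4 and 15.7 CPM with TGF-β1, against 39.3 and 37.9 CPM in controls, and fell by 1.34 (SE 0.067, adjusted p = 3.29e-07, edgeR). The more abundant inhibitory subunit genes Gnai2 and Gnai3 changed little and in opposite directions. Gnai2 had a log2 fold change of -0.14 (adjusted p = 0.00197, edgeR) and Gnai3 of 0.13 (adjusted p = 0.0300, edgeR). With library totals Gnai3 did not pass (adjusted p = 0.601, edgeR).

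The 3 IP3 receptor genes, whose channels release calcium from the endoplasmic reticulum, moved in different directions. Itpr1 had 61.8, 62.1 and 64.2 CPM with TGF-β1, against 143 and 147 CPM in controls, and fell by 1.21 on the log2 scale (SE 0.041, adjusted p = 2.44e-08, edgeR). Itpr3 had 93.9, 95.3 and 94.2 CPM with TGF-β1, against 66.9 and 65.1 CPM in controls, and rose by 0.52 (SE 0.042, adjusted p = 9.43e-06, edgeR). Itpr2 had 22.2, 21.5 and 22.9 CPM with TGF-β1, against 12.8 and 15.6 CPM in controls, and rose by 0.64 (SE 0.096, adjusted p = 0.000533, edgeR). In all 3 the groups did not overlap. Prkcb, a protein kinase C, averaged 5.07 ± 0.607 CPM with TGF-β1 and 8.63 ± 0.268 CPM in controls and fell by 0.77 (SE 0.137, adjusted p = 0.00154, edgeR).

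Genes that shut receptor signals off also split. RGS proteins speed the switching off of G proteins, and GRK kinases and arrestins silence the receptors themselves. Rgs16 had 63.0, 65.9 and 51.8 CPM with TGF-β1, against 20.6 and 22.7 CPM in controls, and rose by 1.47 on the log2 scale (SE 0.104, adjusted p = 3.63e-06, edgeR). Rgs3 had 32.6, 33.7 and 24.0 CPM with TGF-β1, against 71.8 and 68.8 CPM in controls, and fell by 1.22 (SE 0.118, adjusted p = 3.06e-05, edgeR). Both were clear of overlap, with TGF-β1 replicate 3 the lowest of its group. Rgs2 averaged 8.44 ± 1.41 CPM with TGF-β1 and 4.81 ± 1.13 CPM in controls and rose by 0.80 (SE 0.188, adjusted p = 0.00684, edgeR), although not without control replicate 1 (adjusted p = 0.0727). Arrb1, an arrestin, averaged 17.5 ± 0.614 CPM with TGF-β1 and 28.5 ± 0.0560 CPM in controls and fell by 0.70 (SE 0.068, adjusted p = 2.99e-05, edgeR). Grk5 averaged 25.2 ± 1.34 CPM with TGF-β1 and 39.3 ± 4.38 CPM in controls and fell by 0.64 (SE 0.080, adjusted p = 0.000168, edgeR). Rcan2 and Nfatc1 belong to the calcineurin route that reads sustained calcium, Rcan2 as a regulator of the phosphatase and Nfatc1 as a transcription factor it switches on. Rcan2 had 4.33, 3.64 and 4.29 CPM with TGF-β1, against 24.4 and 23.6 CPM in controls, and fell by 2.55 (SE 0.105, adjusted p = 9.85e-08, edgeR). Nfatc1 averaged 20.2 ± 2.51 CPM with TGF-β1 and 9.58 ± 1.07 CPM in controls, a log2 fold change of 1.08 (SE 0.125, adjusted p = 0.000102, edgeR).

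**Figure D4:**
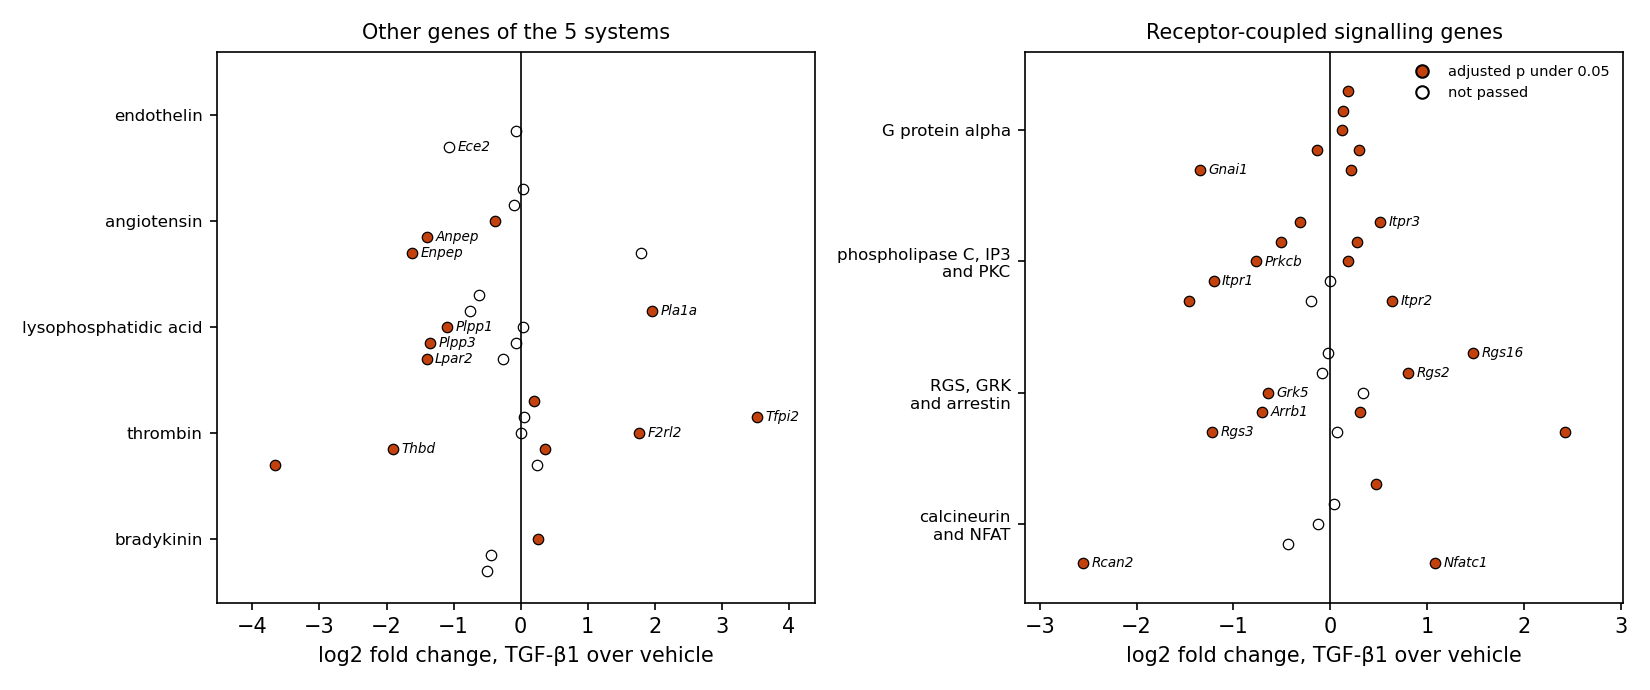
Log2 fold change, TGF-β1 over control, of the other tested genes of the 5 systems (left panel) and of the signalling genes in 4 groups (right panel), 1 point per gene, filled for an adjusted p under 0.05. Tfpi2 lies at 3.53 in the left panel and Rcan2 at -2.55 in the right panel.

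Over the 43 other genes of the 5 systems, 29 were tested, 8 fell, 6 rose and 15 did not pass. Over all genes tested, 44.5% passed, 23.2% lower and 21.3% higher. The median log2 fold change of the 29 was -0.10. In all, 9 of the 43 had 0 counts in every library, and these included the peptide precursor genes Edn3, Agt and Kng1 and the thrombin gene F2. Pericytes are a known site of Agtr1a in lung, and of 10 pericyte and smooth muscle markers 9 were tested, 4 fell and 3 rose. The sum over the 10 was 2595 to 2629 CPM with TGF-β1 and 2979 to 3079 CPM in controls. Cspg4, which encodes the pericyte surface protein NG2, had 46.1, 50.1 and 47.6 CPM with TGF-β1, against 3.99 and 4.64 CPM in controls, and rose by 3.47 on the log2 scale (SE 0.088, adjusted p = 4.14e-09, edgeR). Pdgfrb and Mcam rose by 0.38 and 0.20. Myh11, Des and Notch3 fell, with log2 fold changes of -0.64, -0.41 and -0.73. Myh11 averaged 317 CPM with TGF-β1 and 494 CPM in controls. Kcnj8, a pericyte potassium channel gene, had 3, 0 and 13 counts with TGF-β1, against 30 and 46 counts in controls, and fell (adjusted p = 0.0175, edgeR). Abcc9, its partner, had at most 6 counts in any library. The part of these cells in the fall of Agtr1a was not tested.

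**Figure D5:**
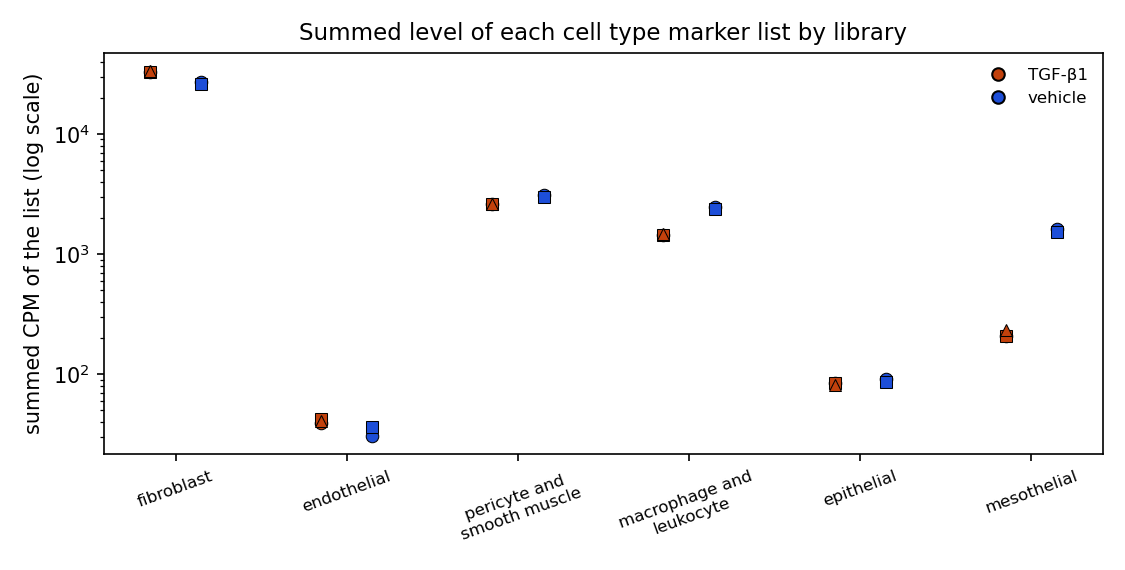
Summed CPM of the markers of each cell type in every library on a log axis, TGF-β1 left of control. The mesothelial sum is 206 to 234 CPM with TGF-β1 and 1537 to 1628 CPM in controls, while the endothelial sum is 39.6 to 42.1 CPM with TGF-β1 and 30.6 to 36.4 CPM in controls.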

How the data were processed

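Total RNA (RNAiso Plus) went into strand-specific polyA libraries made with a Vazyme kit, per the labels' protocols. The table the authors deposited holds unscaled counts, whole numbers per gene, for 5 libraries. STAR 2.5.3a, StringTie 1.3.1c and mm10 are named in the submitters' processing notes. Which tool counted, its strand setting and its annotation release were not given in the sources used here. Reads shared by gene copies may have been dropped or split at that step.

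Columns were matched to samples by title. GENCODE M21 (GRCm38) gave symbols and 1-based coordinates for 55154 of 55335 IDs. After filterByExpr by group and TMM scaling, 16380 genes entered edgeR's quasi-likelihood F test on group alone, two-sided, with a threshold of 0.05 on the Benjamini-Hochberg adjusted p. SE is the absolute log2 fold change over the square root of F. An exact permutation of 3 against 2 libraries cannot reach a p under 0.1, so the tests borrow spread from all genes (common biological coefficient of variation 0.0765). Levels per kb divide CPM by the union of exons.

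The members and lists were chosen with earlier results of these data known. All members were named. From the lists of 43 system genes and 41 signalling genes, those that passed, had a mean of at least 5 CPM and kept all TGF-β1 libraries on 1 side of both controls were named, up to 12 per list by size of change, with the most abundant gene of a role that had none. Ace, Pla1a, F2rl2, F3, Serpind1, Bdkrb1, Kcnj8, Abcc9, Gnai2, Gnai3 and the 4 Gq and G12 subunit genes were named after their values were seen. The marker lists had no rule for naming single genes. All markers given by name, Cspg4 among them, were therefore picked with their values known. The most abundant gene of 1 signalling role is not reported here.

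On simulated counts for the TGF-β1 against control design (16380 genes), edgeR recovered 14 of 50 genes changed 1.25-fold, 27 at 1.5-fold, 37 at 2-fold and 45 at 4-fold, and called 19 unchanged genes. Far fewer genes changed there than the 44.5% called in the data, so the adjustment was stricter and these figures do not carry over. The alternatives were scaling by median of ratios, upper quartile or library totals, a looser and a stricter filter (1 count in total, over 1 CPM), DESeq2, limma-voom, a null of 1.5-fold, a replicate block, and each library omitted in turn. Without 1 control, the lone control was taken to vary as TGF-β1 libraries do. Software was Python 3.11.15 with pandas 2.3.3, scipy 1.17.1, numpy 2.4.6 and matplotlib 3.10.9, and R 4.3.3 with DESeq2 1.42.0, limma 3.58.1 and edgeR 4.0.16.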

Additional observations from a re-analysis of the deposited data

How the results depend on the processing

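Of the 5 members that passed, Agtr1a and Lpar1 passed under all 14 alternatives and F2r under all but the test against a 1.5-fold change (-0.22, adjusted p = 1). The count was 3 with library-total scaling, no filter, DESeq2, limma-voom or the replicate block, 2 against a 1.5-fold change, and 3 to 5 with 1 library left out. The count of members higher was 1 with upper-quartile scaling or the 1 CPM filter, 0 with library totals, no filter, DESeq2, limma-voom, the 1.5-fold test or the replicate block, and 0 to 2 with 1 library left out. F2rl1 lost its call with upper-quartile scaling and no filter (1.14 each), library totals (1.05), DESeq2 and the 1.5-fold test (1.15 each), limma-voom (1.09) and the replicate block (1.03), and was 1.01 to 1.36 with 1 library left out. It could not be tested under the 1 CPM filter. Bdkrb2 lost its call with library totals (0.49), no filter, DESeq2 and the 1.5-fold test (0.59 each), limma-voom (0.56) and the replicate block (0.38), and was 0.38 to 0.70 with 1 library left out. Edn1 changed sign to 0.18 with the replicate block and to 0.18 without TGF-β1 replicate 3. Its range was -0.23 to 0.18 with 1 library left out. These 2 settings are not separate checks. No control carries the number 3, so in the block that library does not bear on the group difference. Ece1 changed sign to -0.043 with library totals. The cause of these changes of sign was not tested.

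Over all genes, 7287 passed, 3488 higher and 3799 lower, against 2325 higher and 4921 lower with library totals, which makes 32.1% of calls higher in place of 47.9%. Against a 1.5-fold change 1786 passed, 563 higher and 1223 lower, and leaving out 1 library gave 5433 to 7504. In the 1.5-fold test 3 system genes were higher, and 8 signalling genes passed, 3 higher and 5 lower. Replicate numbers 1 and 2 are shared by both groups, and number 3 occurs only with TGF-β1. Deviations of same-numbered libraries correlated at 0.0159 and 0.0161, so the numbers are not shown to pair them, and the replicate block called 7265 genes. With it Ece2 (-2.55, adjusted p = 0.0208, edgeR) and Bdkrb1 (-0.69, adjusted p = 0.0324) passed, which they did not without it. Enpp2 and Ednrb had at most 8 counts in a library, so a fall in either was not detectable at this depth.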

Other observations

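TGF-β1 replicate 3 stood apart from the other TGF-β1 libraries for Edn1, with a log2 difference of -0.97 from their mean. Of 10928 genes with at least 5 CPM, 32 (0.293%) were as far from it in either direction. Bdkrb2 was higher in that library by 0.54 on the log2 scale, a distance reached by 1.35% of these genes. Among genes named after their values were seen, the immediate early gene Egr1 had 88.8, 92.4 and 28.3 CPM with TGF-β1, against 71.7 and 63.2 CPM in controls. Dusp6, a phosphatase that acts on ERK kinases, had 124.5, 123 and 58.2 CPM with TGF-β1, against 85.9 and 90.7 CPM in controls. Both were low in replicate 3, as Edn1 was. Nr4a1, a nuclear receptor gene, had 5.82, 5.00 and 34.7 CPM with TGF-β1, against 5.90 and 5.90 CPM in controls, and was high there.

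Likeness of pattern was measured as the distance between centred log2 CPM over the 5 libraries. It was taken among 10388 protein-coding genes with a mean of at least 5 CPM. Genes of the lists used here, the cell type markers included, were left out and so could not appear. Nearest to Lpar1 were Hk3, a hexokinase gene, at 0.0418, Vps13c at 0.0421 and Ces2g at 0.0537. Nearest to Agtr1a, added after its values were seen, were Igfbp5 at 0.270, Steap4 at 0.449 and Clca3a1 at 0.725. Agtr1a itself averaged 3.86 CPM over the 5 libraries, below the level set for its neighbours. Nearest to Edn1, also added, were Jrk at 0.237 and Phlda1 at 0.256. Phlda1 had 101.7, 99.2 and 53.8 CPM with TGF-β1, against 98.9 and 105.5 CPM in controls.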
